A study of Mus musculus with 2 samples.

Results

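The 10 genes described here are markers of the fat cell together with the lipases that release or take up fatty acids: Adipoq, Fabp4, Car3, Cfd, Retn, Plin1, Cidec, Lipe, Pnpla2 and Lpl. They were chosen by symbol as known genes of fat tissue, with earlier results of these data in view, and all 10 were found among the 25810 named genes of the deposited tables. Poly(A) RNA was sequenced from mammary epithelial cells (MECs) of inguinal glands on lactation day 3, in 1 library from wild type (WT) mice and 1 library from Igfbp7-/- mice. The cells were dissociated from the gland and depleted of lineage positive cells, which the methods give as cells carrying CD45, CD31 or Ter119 and the labels as CD45, CD35 and Ter119. The labels name C57BL/6 as the background of both libraries, whereas the methods describe knockout mice made on CD1. In the knockout, exon 1 of Igfbp7 was flanked by loxP sites and removed in embryonic stem cells by a virus carrying Cre, so every tissue of the animal carries the deletion. Igfbp7 encodes a secreted binding protein of the insulin-like growth factor family. The age of the mice and the number of animals behind each library are not given in the sources used here, and neither library has a replicate.

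White fat cells keep triglyceride in a droplet coated by perilipin and CIDE proteins. Lipolysis empties the droplet stepwise: adipose triglyceride lipase (Pnpla2) makes diglyceride, hormone-sensitive lipase (Lipe) makes monoglyceride and monoglyceride lipase finishes the work. Lipoprotein lipase (Lpl) acts outside the cell, at the capillary wall, where it frees fatty acids from circulating lipoproteins. In the mammary gland fat cells shrink during lactation and refill during involution, while the lactating gland draws on blood lipids through lipoprotein lipase to make milk fat.

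Igfbp7 itself was at 152.2 RPM in the WT library and at 1.06 RPM in the Igfbp7-/- library, where RPM is the read count scaled to 1000000 mapped reads. The libraries held 34327854 and 35016847 mapped reads, of which 82.4% and 72.3% fell on listed genes. All intervals below are 95% intervals on read pairs, cover counting error only and say nothing about the variation between animals. Genes of the milk-secreting epithelium were abundant in both libraries: Csn2, which encodes beta-casein, was at 53087 RPM in WT against 19970 RPM in Igfbp7-/-, and the keratin gene Krt18 at 250.4 against 1174 RPM. Transcripts of the antigens used for depletion were also present: Pecam1, which encodes CD31, was at 322.5 RPM in WT against 88.9 RPM in Igfbp7-/-, and Ptprc, which encodes CD45, at 43.5 and 18.1 RPM.

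Of the 10 genes, 8 were lower in the Igfbp7-/- library by at least 1.5 times, Pnpla2 was higher by at least 1.5 times and Lipe was higher by less. For Plin1 this rests on 9 and 2 reads, and with 1 RPM in place of 0.1 RPM added its log2 ratio was -0.26, within 1.5 times. This is a comparison of 2 libraries and has no test, since the spread between animals was not measured. In bulk RNA, fewer cells of a type and less RNA per cell cannot be told apart, and this holds for every level below. Among all 20151 genes with reads, 26.2% were lower and 23.5% were higher by the same rule. Retn and Plin1 stayed under 1 RPM in both libraries, and Adipoq reached 1 RPM only in WT. With a minimum of 1 RPM in at least 1 library, 8 of the 10 genes were kept, of which 6 were lower and 1 was higher, beside 23.0% lower and 21.4% higher among 14026 genes. The median log2 ratio of these 8 genes was -1.85, and that of the 14026 genes was 0.035. The ratios of the 8 ran from -3.01 for Car3 to 0.69 for Pnpla2 on the log2 scale, computed after adding 0.1 RPM to both libraries.

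**Figure D1:**
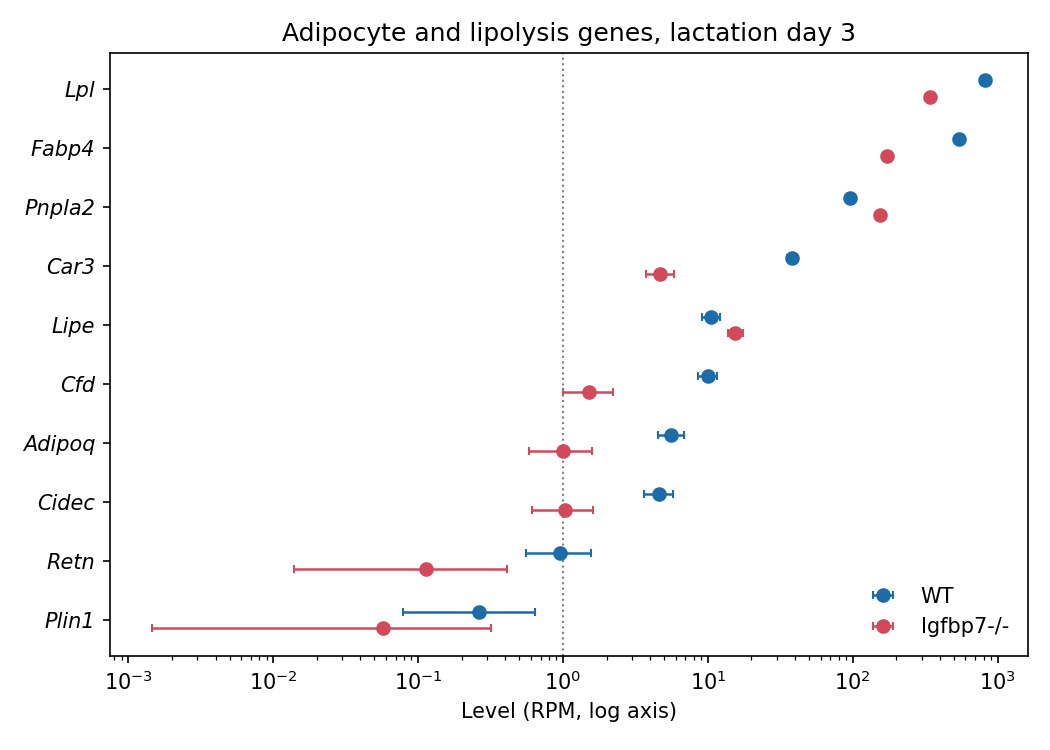
Level of each of the 10 genes in RPM (log axis) in the WT library (blue) and the Igfbp7-/- library (red); bars are exact Poisson 95% intervals on read pairs and the dotted line is 1 RPM. Pnpla2 and Lipe lie further right in Igfbp7-/-, and the other 8 genes lie further right in WT.

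When counts were scaled to the reads on listed genes in place of all mapped reads, the median log2 ratio of all genes past the minimum went from 0.035 to 0.224. The split changed from 3231 lower and 3006 higher genes to 2712 lower and 4463 higher of 14567. None of the 10 genes changed direction under any of the scalings tried. Measured from the median of all genes, the log2 ratio of Lipe was 0.51 under both scalings and that of Pnpla2 was 0.66 under both. A change of scale shifts all genes nearly alike, so these values had to agree and are no check of the direction.

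**Figure D2:**
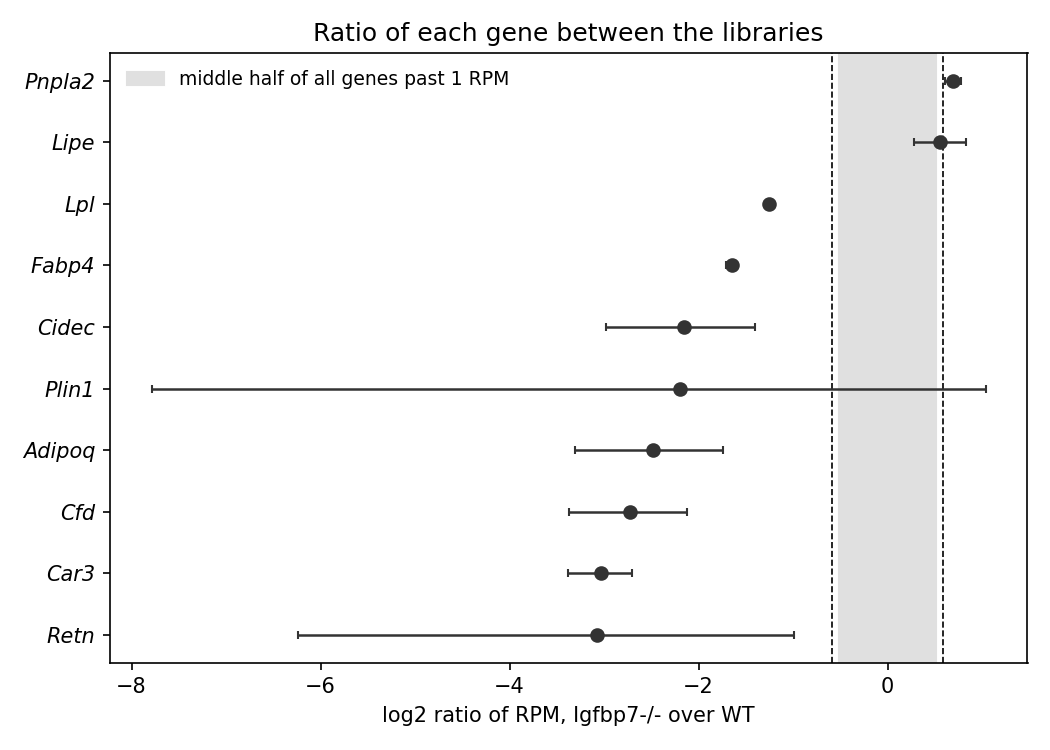
log2 ratio of RPM between the Igfbp7-/- and the WT library for each gene, without added RPM; bars are 95% Clopper-Pearson intervals on read pairs, dashed lines mark a ratio of 1.5 either way and the grey band is the interquartile range of all genes past 1 RPM. Of the 8 lower genes, Plin1 alone has an interval that reaches 1, at 9 and 2 reads.

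Levels of different genes were compared per kilobase of transcript (RPKM). In the WT library the order from high to low was Fabp4 (841.3 RPKM), Lpl (201.4), Pnpla2 (35.4), Car3 (24.9), Cfd (10.8), Adipoq (4.54), Lipe (3.27), Cidec (2.69), Retn (0.858) and Plin1 (0.135). The intervals of Adipoq and Lipe overlapped, as did those of Lipe and Cidec, and all other neighbours were apart. In the Igfbp7-/- library Fabp4 (268.4 RPKM), Lpl (84.4) and Pnpla2 (57.2) again stood first. Lipe (4.81 RPKM) came next there, ahead of Car3 (3.05) and Cfd (1.63), and from Cfd down to Plin1 the intervals of all neighbours overlapped. Both libraries thus held far more Fabp4 and Lpl than Adipoq, Cidec, Retn and Plin1. Per kilobase, Fabp4 stood 185.5 times above Adipoq in WT and 331.1 times above it in Igfbp7-/-. By RPKM, Adipoq ranked at the 62.3 percentile of genes with reads in WT and at the 35.3 percentile in Igfbp7-/-, while Fabp4 was at the 99.8 and 99.4 percentiles. The fat cell markers listed next spread widely by this rank, in WT from the 15.3 percentile for Plin1 to that of Fabp4. Pparg was at the 91.2 percentile in WT and the 88.7 percentile in Igfbp7-/-. Of 9 genes taken as fat cell markers (Adipoq, Plin1, Cidec, Retn, Cfd, Fabp4, Lep, Pparg and Lgals12), 7 passed 1 RPM, with 5 lower, Lep higher and Pparg within 1.5 times. Of all genes past 1 RPM, 23.0% were lower and 21.4% higher. The summed level of the 9 markers was 645.0 RPM in WT against 239.7 RPM in Igfbp7-/-, most of it Fabp4, and Plin1 was near 0 in both.

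Among the secreted proteins, Adipoq encodes adiponectin, a hormone made by fat cells that acts on liver and muscle. Its 3 exons span bases 23146609 to 23158101 of chromosome 16 in the mm9 build, plus strand. Adipoq had 192 reads (5.59 RPM) in WT against 35 reads (0.9995 RPM) in Igfbp7-/-, which is 5.60-fold lower (3.34 to 9.92). Cfd, on chromosome 10 from 79353598 to 79355401, encodes adipsin, the serine protease of the alternative complement pathway that fat cells release. It had 343 reads (9.99 RPM) in WT against 53 reads (1.51 RPM) in Igfbp7-/-, 6.60-fold lower (4.37 to 10.4). Retn, on chromosome 8 from 3655770 to 3660110, encodes resistin, which mouse fat cells secrete. It had 33 reads (0.961 RPM) in WT against 4 reads (0.114 RPM) in Igfbp7-/-, 8.42-fold lower with a wide interval of 1.99 to 75.3. The intervals of the 3 secreted proteins overlapped. The ratio of Cfd to Adipoq reads was 1.79 in WT and 1.51 in Igfbp7-/-, and no difference between them was detectable at this depth (ratio of the ratios 0.848, 0.421 to 1.55).

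Leptin did not share this direction. Lep, the gene of the satiety hormone, had 276 reads (8.04 RPM) in WT against 590 reads (16.8 RPM) in Igfbp7-/-, a ratio of 2.10 (1.71 to 2.58). The ratio of Lep to Adipoq reads was therefore 1.44 in WT and 16.9 in Igfbp7-/-. Of the genes through which adiponectin is received, Adipor1 and Adipor2, the seven-pass receptors, were nearly level between the libraries at 114.7 and 115.4 RPM and at 213.4 and 188.1 RPM. Cdh13, which encodes T-cadherin, the surface protein that holds adiponectin on endothelial and muscle cells, was 3.34-fold lower (2.95 to 3.80) in Igfbp7-/-, at 61.8 RPM in WT against 18.5 RPM in Igfbp7-/-.

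Inside the fat cell, Fabp4 (aP2) carries fatty acids through the cytoplasm, and it is also a known product of capillary endothelial cells and macrophages. Its 4 exons span bases 10204347 to 10208576 of chromosome 3, minus strand. It had 18657 reads (543.5 RPM) in WT against 6071 reads (173.4 RPM) in Igfbp7-/-, 3.13-fold lower (3.01 to 3.27). In its family, Fabp3, the heart-type protein that is abundant in the lactating mammary epithelium, was at 465.0 RPM in WT against 193.4 RPM in Igfbp7-/-, and Fabp5, the epidermal-type protein, at 38.7 and 9.51 RPM. Both were lower by at least 1.5 times, and no other family member of 9 listed reached 1 RPM in either library. Per kilobase, Fabp4 stood 1.21 times above Fabp3 in WT and 0.929 times in Igfbp7-/-. How the authors assigned reads that match several family members is not given in the sources used here.

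Car3 encodes carbonic anhydrase 3, a cytosolic enzyme that is abundant in fat and slow muscle fibres. It is also on chromosome 3, with 7 exons between 14863538 and 14872351, plus strand. Car3 had 1316 reads (38.3 RPM) in WT against 164 reads (4.68 RPM) in Igfbp7-/-, 8.19-fold lower (6.50 to 10.4), the lowest ratio among the 8 genes past the minimum. Of 14 other carbonic anhydrase genes, 8 passed the minimum, 5 of them lower (62.5%) and 2 higher, beside 23.0% lower and 21.4% higher of all genes. Car4, which encodes the membrane-bound form found on capillaries, was at 21.3 RPM in WT against 4.60 RPM in Igfbp7-/-. Car13 was at 100.8 and 29.0 RPM, Car2 on the other hand at 23.4 RPM in WT against 37.7 RPM in Igfbp7-/-.

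Of the droplet genes of the fat cell, Plin1 ranked by RPKM at the 15.3 percentile of genes with reads in WT and the 3.71 percentile in Igfbp7-/-. Cidec ranked at the 52.7 and 31.7 percentiles. Plin1 encodes perilipin 1, which coats the droplet of white fat cells and holds the lipases back until hormones signal. The gene, of 9 exons between 86866050 and 86877662 on chromosome 7 (minus strand), had 9 reads (0.262 RPM) in WT against 2 reads (0.0571 RPM) in Igfbp7-/-. At this depth no difference was detectable, since the ratio of WT to Igfbp7-/- was 4.59 with an interval of 0.486 to 221.1. Cidec, on chromosome 6 from 113374628 to 113385754, encodes Fsp27, which lets droplets fuse into a single large one. It had 157 reads (4.57 RPM) in WT against 36 reads (1.03 RPM) in Igfbp7-/-, 4.45-fold lower (2.64 to 7.89).

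Among the relatives of these coat proteins some were abundant and others not. Per kilobase, Plin2 stood 1317 times above Plin1 in WT. Plin2, which encodes adipophilin, the coat of cytoplasmic droplets in many cells including milk-secreting ones, had 11562 reads (336.8 RPM) in WT against 29638 reads (846.4 RPM) in Igfbp7-/-, a ratio of 2.51 (2.44 to 2.59). Plin3 was at 34.8 RPM in WT against 44.4 RPM in Igfbp7-/-, within 1.5 times. Plin4 was at 24.7 and 17.8 RPM, also within 1.5 times. Plin5, known from heart and other oxidative tissue, had 2 reads in WT and 20 in Igfbp7-/-, and Cideb, known from liver, had 1 and 4 reads. Cidea, known from brown fat and from the lactating mammary gland, was at 146.1 RPM in WT against 106.2 RPM in Igfbp7-/-, within 1.5 times as well. The perilipin with the highest level was thus the one gene of its family past 1 RPM that was higher in Igfbp7-/- by at least 1.5 times.

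Lipoprotein lipase had more reads than any other of the 10 genes. Lpl, of 10 exons between 71404390 and 71431347 on chromosome 8 (plus strand), had 27997 reads (815.6 RPM) in WT against 11969 reads (341.8 RPM) in Igfbp7-/-, 2.39-fold lower (2.31 to 2.46). Its inhibitor Angptl4, a secreted protein that unfolds the enzyme, was higher: 112.6 RPM in WT against 345.2 RPM in Igfbp7-/-, a ratio of 3.07 (2.91 to 3.23). Gpihbp1, which encodes the capillary protein that binds lipoprotein lipase and carries it to the vessel lumen, was at 24.8 RPM in WT against 3.83 RPM in Igfbp7-/-, 6.47-fold lower (4.99 to 8.50). Within each library, and hence free of the scaling, there were 0.138 Angptl4 reads per Lpl read in WT and 1.01 in Igfbp7-/-. Gpihbp1 reads per Lpl read went the other way, 0.0304 in WT and 0.0112 in Igfbp7-/-.

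The genes that fold and process the enzyme differed less. Lmf1, which encodes lipase maturation factor 1, was at 7.52 RPM in WT against 9.20 RPM in Igfbp7-/-, and Sel1l, which encodes its partner in the endoplasmic reticulum, at 47.5 and 62.7 RPM. Furin and Pcsk5, proprotein convertases that can cleave the enzyme, were at 139.7 and 102.2 RPM and at 19.8 and 13.4 RPM, all within 1.5 times. Pcsk6, another convertase, was at 20.7 RPM in WT against 31.9 RPM in Igfbp7-/-, a ratio of 1.54 (1.35 to 1.77). The receptor genes Vldlr (118.2 and 103.1 RPM) and Lrp1 (354.7 and 384.0 RPM), whose products bind lipoprotein remnants, were within 1.5 times. Apoc2, the apolipoprotein that activates the enzyme and comes mainly from the liver, had 2 reads in each library. Lipg, which encodes endothelial lipase, a relative of lipoprotein lipase, was 3.02-fold lower (2.81 to 3.25), at 172.6 and 57.2 RPM.

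The intracellular lipases were the only 2 of the 10 genes with more RPM in Igfbp7-/- than in WT. Pnpla2, of 9 exons between 148641097 and 148646642 on chromosome 7 (plus strand), had 3303 reads (96.2 RPM) in WT against 5446 reads (155.5 RPM) in Igfbp7-/-, a ratio of 1.62 (1.52 to 1.72). Lipe, of 10 exons between 26164546 and 26183729 on the same chromosome (minus strand), had 362 reads (10.5 RPM) in WT against 542 reads (15.5 RPM) in Igfbp7-/-, a ratio of 1.47 (1.21 to 1.78). Lipe was thus just short of 1.5 times, and passed it when counts were scaled to the reads on listed genes or without the 20 genes with the highest RPM. Exons of Lipe share 264 of 4518 bases with 4732471J01Rik on the other strand, and the strand setting of the count is not given in the sources used here. The ratio of Pnpla2 to Lipe reads was 9.12 in WT and 10.05 in Igfbp7-/-, a difference within its counting interval (ratio of the ratios 1.10, 0.903 to 1.34). The ratio of Pnpla2 to Lpl reads, in contrast, was 0.118 in WT and 0.455 in Igfbp7-/-, which is 3.86 times higher (3.60 to 4.13).

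Around the lipases, Abhd5 (CGI-58), the coactivator of adipose triglyceride lipase, was at 84.4 RPM in WT against 93.8 RPM in Igfbp7-/-, and Mgll, the monoglyceride lipase, at 73.9 and 92.5 RPM. Both were within 1.5 times. There were 1.14 Pnpla2 reads per Abhd5 read in WT and 1.66 in Igfbp7-/-. G0s2, the inhibitor of adipose triglyceride lipase, had no reads in either library, which allows up to 0.215 RPM for WT and 0.211 RPM for Igfbp7-/- (upper ends of the exact Poisson interval on read pairs). Of the adrenergic receptors that switch lipolysis on, Adrb3, the form typical of fat cells, had 14 reads in WT against 2 reads in Igfbp7-/-. Adrb1 was at 0.932 RPM in WT against 2.34 RPM in Igfbp7-/-. The kinase subunit genes Prkaca (13.6 and 11.3 RPM) and Prkacb (78.1 and 85.6 RPM), which relay the signal, were within 1.5 times.

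**Figure D3:**
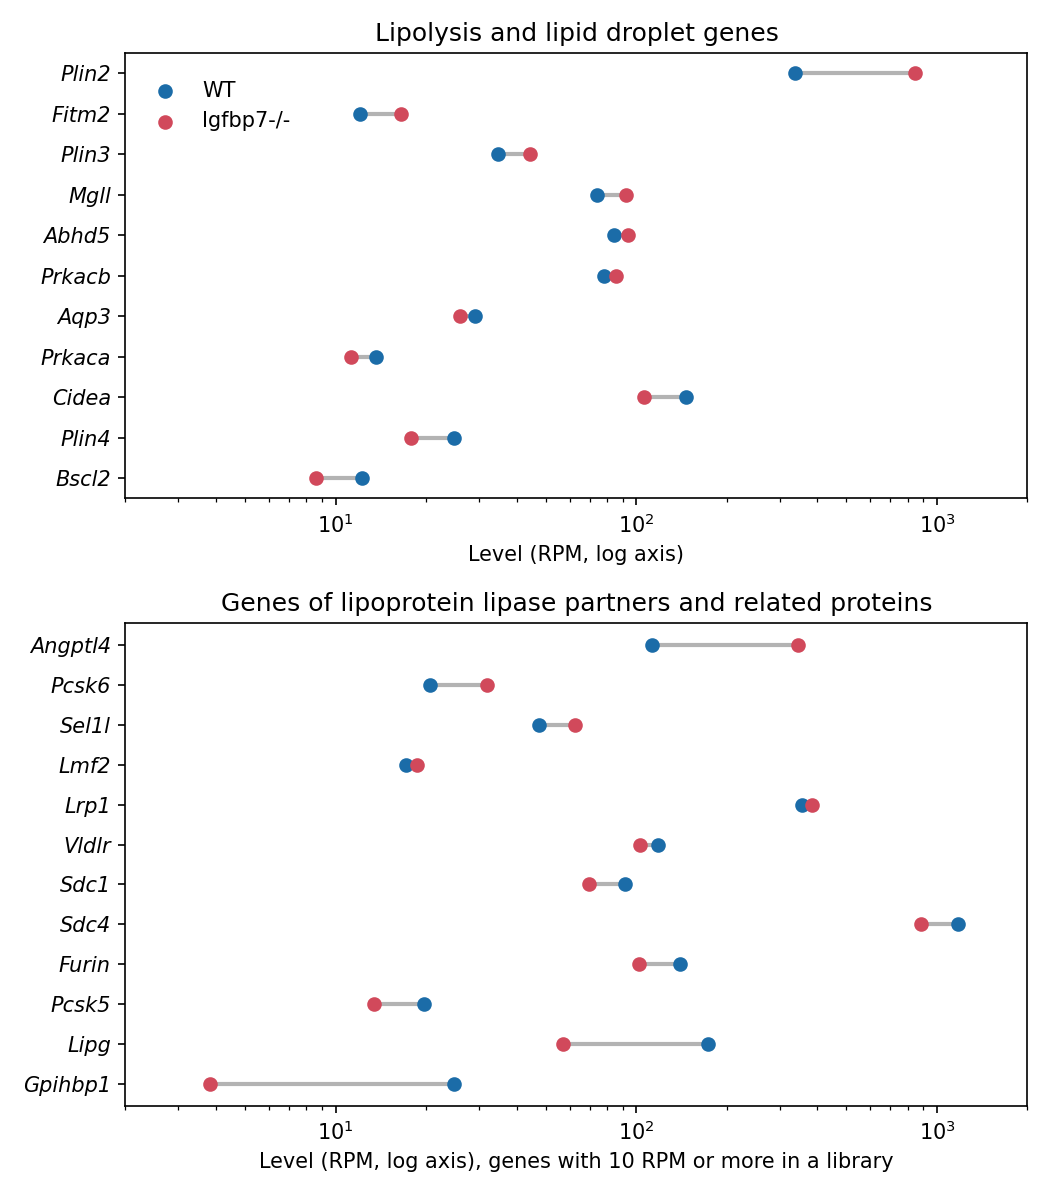
Level in RPM (log axis) of genes that reached 10 RPM in a library, from the list of lipolysis and droplet genes (top) and the list of lipoprotein lipase partners and relatives (bottom, Glul left out); a line joins the WT (blue) and the Igfbp7-/- (red) value of each gene. Plin2 and Angptl4 lie furthest to the right in Igfbp7-/- relative to WT, and Gpihbp1 and Lipg furthest to the left.

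Start site windows of 300 bases, from 250 before to 50 after the RefSeq start (build GRCm38.p6), were at hand for 7 of the 10 genes, in 9 windows. Fabp4, Car3 and Lpl were not among them. Stretches are shown for the 2 genes with more RPM in Igfbp7-/- and for Adipoq, a choice made after the directions were seen. Whether any motif goes with the direction was not tested. The share of G and C bases was highest for Pnpla2 (65.3%) and Lipe (61% in the upstream window, 60% in the other). In the remaining windows it ran from 50% for Adipoq to 57.7% for Cfd. The motif GGGCGG (GC box), searched on both strands, was at 2 places in the window of Pnpla2 and at 6 places in the upstream one of the 2 windows of Lipe. The windows of Adipoq, Cfd, Retn, Plin1 and Cidec did not hold these letters. Of 32851 windows of the same length, 35.7% held it. The motif CCAAT, also on both strands, was found among the 9 windows only for Adipoq, at 3 places, and 37.4% of all windows held it. The other motifs searched, TATAAA (the core promoter box, in 13.6% of all windows) and AGGTCA (a motif of nuclear receptors, in 16.3%), were in 0 of the 9 windows. Not all places are shown. The sequences below are read 5′ to 3′ on the strand of the gene, with every copy of the motif or its reverse complement in capitals and the position of the first copy counted from the start. The counts were made per gene, so the start site behind the reads is not known.
Pnpla2, chr7:141455067-141455096, motif at -109: ggtgtcacgaagGGGCGGggcctcgggggc
Pnpla2, chr7:141455150-141455179, motif at -26: gccgaccaggccCCGCCCtcaccccgcact
Lipe upstream window, chr7:25396116-25396145, motif at -146: gaccacgtgaggGGGCGGaggaaaaggcgg
Adipoq, chr16:23146490-23146518, motif at -34: aggggcccactcATTGGctATTGGccttg

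A wider set of genes was listed by hand for fat cell identity, for lipolysis and droplets, and for partners of lipoprotein lipase. Of 67 such genes in the tables, 54 passed 1 RPM in a library, of which 16 were lower (29.6%) and 6 higher (11.1%) by at least 1.5 times, beside 23.0% and 21.4% of all genes, with a median log2 ratio of -0.35 beside 0.035 for all genes. Among 19 fat cell identity genes past the minimum, 10 were lower (52.6%) and Lep was the one higher gene. The lowest were Apln, the gene of the peptide apelin (13.7 RPM in WT, 1.66 in Igfbp7-/-), Cyp2e1 (5.94 and 0.857 RPM) and Thrsp, the lipogenic Spot 14 gene that is also high in mammary epithelium (324.1 and 51.6 RPM). Closer to the fat cell, Adig (adipogenin, 3.61 and 0.9995 RPM), Lgals12 (galectin 12, 16.4 and 5.05 RPM) and Slc2a4 (the insulin-regulated glucose transporter GLUT4, 16.2 and 5.94 RPM) were lower as well. The regulators of the fat cell programme differed less: Pparg was at 55.6 RPM in WT against 40.7 RPM in Igfbp7-/-, and Cebpa at 26.6 and 29.4 RPM, both within 1.5 times. Cd36, a fatty acid transporter of fat, endothelial and mammary cells, was within 1.5 times at 545.8 and 409.0 RPM. Of 19 lipolysis and droplet genes past the minimum, 3 were lower and 3 were higher (15.8% each, below the shares of all genes), and their median of -0.08 turned to 0.10 when counts were scaled to the reads on listed genes.

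Markers of other cells also differed between the libraries, and their counts stand beside 23.0% lower and 21.4% higher of all genes. Of 12 markers of the milk-secreting alveolar epithelium, 6 were lower and 3 higher, with a summed level of 125807 RPM in WT and 52069 RPM in Igfbp7-/-. Lpl had 0.0154 reads per Csn2 read in WT and 0.0171 in Igfbp7-/-, a ratio of the ratios of 1.11, for which no interval was computed. Csn2 is among the 6 lower markers, whereas Krt18, among the 3 higher, had a ratio of 4.69. The pair was chosen after its values were seen and does not stand for the list. Of 10 endothelial markers, 9 were lower in Igfbp7-/- by at least 1.5 times and Tek (31.9 and 28.2 RPM) was not, and their summed level was 1407 RPM in WT against 442.7 RPM in Igfbp7-/-, 3.18-fold lower. Next to Cdh5, the gene of VE-cadherin, Fabp4 had 0.931 reads per read in WT and 0.945 in Igfbp7-/-, a difference within counting error (ratio of the ratios 1.01, 0.959 to 1.07). Next to Pecam1 it had 1.69 and 1.95, a difference beyond counting error (ratio of the ratios 1.16, 1.08 to 1.24). These pairs too were chosen after their values were seen and do not stand for the list. The ratio of Igfbp7-/- to WT RPM was 0.319 for Fabp4, and among the 10 endothelial markers it ran from 0.155 for Gpihbp1 to 0.885 for Tek. Of 10 macrophage markers, 6 were lower and none higher, and their sum, most of it Cd14, was 673.9 RPM in WT against 767.4 RPM in Igfbp7-/-. Of 12 fibroblast and preadipocyte markers, 5 were lower and none higher, with a summed level of 9423 and 4917 RPM, most of it Col3a1, Col1a1 and Col1a2. The sum does not stand for the list, whose log2 ratios ran from -2.25 to 0.45 with a median of -0.46. All 4 erythroid markers past the minimum were within 1.5 times (summed level 1066 and 1243 RPM). Of 7 myoepithelial markers, 6 were lower, from a sum of 3085 to 976.5 RPM. The part of these cells in the levels of Fabp4, Lpl and the other genes was not tested.

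**Figure D4:**
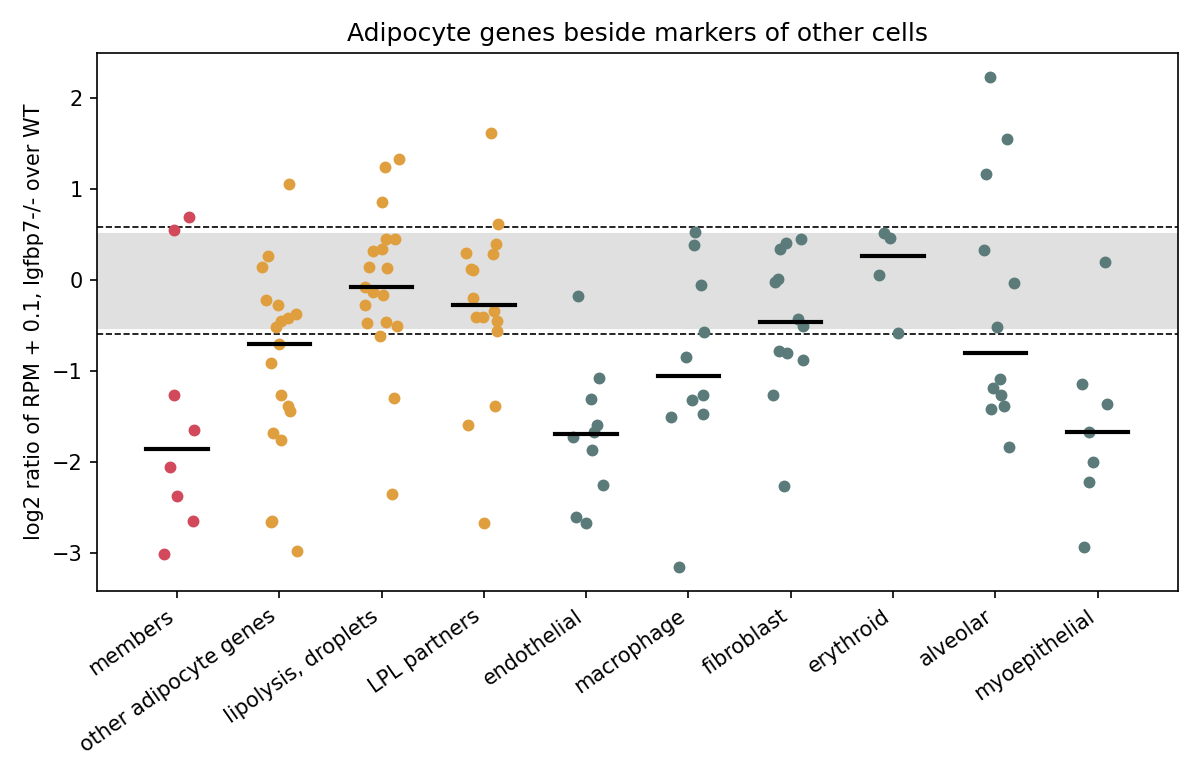
log2 ratio of RPM + 0.1 between the Igfbp7-/- and the WT library for each gene past 1 RPM, for the 8 of the 10 genes kept (red), the pathway lists (orange) and the markers of other cells (green); black bars are medians, dashed lines a ratio of 1.5 either way and the grey band the interquartile range of all genes. The 8 genes have a median of -1.85, the endothelial markers of -1.69 and the myoepithelial markers of -1.67, while the erythroid markers sit at 0.26.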

How the data were processed

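RNA of 1 WT and 1 Igfbp7-/- library was sequenced in paired-end mode on a SOLiD instrument. Per the submitters' processing notes, reads were mapped with Bowtie 0.12.3 and handled with SAMtools 0.1.15 against mm9, while the methods name a human build. The authors deposited raw read counts per gene, the RPM (the count scaled to all mapped reads of the library) and the RPKM (the RPM per kilobase of a transcript length of their choice). Blank counts were read as 0, since their RPM was 0. Rows with no symbol held 0.0495% and 0.0670% of the listed reads and were left out.

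Ratios were computed from RPM + 0.1 for genes with at least 1 RPM in a library. A gene was counted as higher or lower at 1.5 times. The paper's results used this fold together with cutoffs on P value and sequence quality, which were not applied here. With 1 library per genotype no test was made. Among genes with 1 to 20 reads, 75.8% (WT) and 74.1% (Igfbp7-/-) of counts were even, so intervals were computed on read pairs (count divided by 2). They were Clopper-Pearson for ratios between the libraries and exact Poisson for levels. For ratios between 2 genes they were normal approximations on the log odds ratio, which are not exact at low counts. The code was tested on simulated data.

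The 10 genes and the hand-written lists were chosen with earlier results of these data known, and the gene pairs set against each other within a library were chosen after their values were seen. The text names the 10 genes, genes of the pathway and family lists by their role, and of the marker lists the most abundant genes and the depletion antigens; Krt18, Tek and genes under 1 RPM (G0s2, Adrb3, Apoc2, Ucp1, Zic1, Prdm16, Ppargc1a, Plin5, Cideb and Retnlb) fall outside this and were named after their values were seen. Glul stood in the list of lipoprotein lipase partners by mistake and was kept in its counts (339.6 and 419.4 RPM). Some genes of the lists are counted in them but not reported here by name or drawn in the plot of pathway levels. Hilpda and Angptl8 were not found under these symbols. Positions are from GENCODE vM1 (NCBIM37, the same assembly as mm9), and start site windows from RefSeq on GRCm38.p6. Alternatives covered the added RPM, the minimum, the fold and the scaling, with TMM from edgeR 4.0.16 and size factors from DESeq2 1.42.0 (R 4.3.3). Python 3.11.15, numpy 2.4.6, scipy 1.17.1, pandas 2.3.3 and matplotlib 3.10.9 were used.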

Additional observations from a re-analysis of the deposited data

How the results depend on the processing

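The 10 genes were recomputed under 8 settings of scale and added RPM: of 80 log2 ratios, 76 moved by no more than the margin of their counting interval, 4 moved further and none changed sign. The intervals of Plin1 (-7.79 to 1.04 on the log2 scale) and Retn (-6.23 to -0.99) are so wide that all their values counted as within the margin. The 76 is therefore no measure of how firm these ratios are. The ratio of Lipe ranged from 0.51 to 0.74 and that of Pnpla2 from 0.66 to 0.88 on the log2 scale. The widest ranges were those of Retn, from -2.97 to -0.82, and Plin1, from -2.02 to -0.26, where the value with 1 RPM added is within 1.5 times. With a minimum of 10 RPM, which keeps 5 of the 10 genes, 3 were lower, beside 20.4% of all genes, and the median was -1.25. With reads on listed genes as the scale, or without the 20 genes with the highest RPM, 2 genes were higher, as Lipe passed 1.5 times. Of all genes, 30.6% and 24.2% were higher under these scalings. With a fold of 2 the count of higher genes among the 10 was 0, beside 9.64% of all genes. Of the wider pathway list, 10 of 55 genes in place of 6 of 54 were higher when scaled to reads on listed genes, beside 30.6% of all genes. With no minimum, 11 of 63 were higher, beside 23.5% of all genes. Over all genes, 1936 were lower and 1352 higher of 14026 with a fold of 2, 5279 and 4741 of 20151 with no minimum, and 1672 and 1696 of 8201 with a minimum of 10 RPM. No paired analysis was possible because each genotype has 1 library, and no library could be left out for the same reason. Depth limits Plin1 and Retn, whose Igfbp7-/- values rest on 2 and 4 reads.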

Other observations

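Of 9 brown fat markers, 7 stayed under 1 RPM in both libraries, and Cidea and Dio2 passed it. Ucp1, the uncoupling protein of brown fat, had 14 reads in WT against 4 reads in Igfbp7-/-, and Zic1 had none in either library. Dio2, which encodes the deiodinase that activates thyroid hormone, was at 9.73 RPM in WT against 3.26 RPM in Igfbp7-/-. Prdm16 and Ppargc1a, regulators of the brown fat programme, were among the 7.

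The resistin relatives Retnla (3.73 RPM in WT, 1.71 in Igfbp7-/-) and Retnlg (1.11 and 0.171 RPM), which are known products of macrophages and neutrophils, were lower like Retn itself, and Retnlb had no reads. Car6, the secreted carbonic anhydrase of saliva and milk, had 12 reads (0.350 RPM) in WT against 82 reads (2.34 RPM) in Igfbp7-/-, the highest ratio in its family among genes past 1 RPM.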
